A study of Mus musculus with 4 samples.

Results

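The monocytes described here were 73 barcodes of 21714 kept barcodes in 4 droplet single-cell RNA libraries made from mouse brain. A kept barcode had at least 500 genes, at least 1000 unique molecular identifiers (UMIs, tags that count each captured RNA molecule once) and at most 10% mitochondrial UMIs. A monocyte was a kept barcode with UMIs in at least 3 of 6 marker genes, Ccr2, Ly6c2, Plac8, Chil3, Ms4a4c and Vcan. It also held 0 UMIs of Mrc1, Tmem119, Retnlg, Ly6g, Cd3e and Cd79a, which mark border macrophages, microglia, neutrophils, T cells and B cells. Barcodes with 5 or more UMIs per 10000 of the granulocyte precursor genes Elane, Mpo and Prtn3, or 20 or more of the endothelial genes Cldn5 and Flt1, were left out. The 6 markers and the excluded genes therefore chose the cells, and their levels are given below as a description only.

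The study asked how loss of the transcription factor KLF4 from endothelial cells (ECs) bears on the aging brain. The 4 groups were WT Cre mice, young or old, and EC-K4KO mice, young or old. All of them carried the CDH5-CreERT2 driver, a tamoxifen-inducible Cre expressed from an endothelial promoter, and EC-K4KO mice also carried floxed Klf4 alleles. WT Cre mice were littermates, and mice of both sexes were used. Each group was 1 library, so no test between the groups exists, and the number of animals behind a library was not given in the sources used here. Brains were dissociated mechanically and enriched for ECs by sorting or by an endothelial marker. A monocyte in these libraries was thus a cell that came through an enrichment for another cell type, and whether it came from blood in the vessels or from the tissue cannot be told apart. Values for the 4 libraries are given in 1 order throughout, the young WT Cre library first, the young EC-K4KO library next, then the old WT Cre library and last the old EC-K4KO library.

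Monocytes are leukocytes that arise in the bone marrow, circulate in blood and can enter tissue, where they can become macrophages or antigen-presenting cells. Classical mouse monocytes carry the chemokine receptor CCR2, which lets them leave the marrow, and the surface protein Ly6C, and they turn into patrolling nonclassical monocytes that depend on the nuclear receptor gene Nr4a1. In healthy brain tissue they are scarce, and the resident phagocytes are microglia and the macrophages of the meninges and perivascular spaces.

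A pair of the markers have close copies in the genome, one of which is abundant in brain ECs. Ly6c2, the Ly6C gene of monocytes, lies on the minus strand at chr15:75108158-75111970 (GRCm38, 4 exons), and Ly6c1, an endothelial gene, lies on the same strand at chr15:75044018-75048830. Their coding sequences of 393 bases differ at 9 bases (97.7% identity), and 5 of the differences fall within coding bases 7 to 36. Chil3, which encodes a secreted chitinase-like protein of myeloid cells, lies at chr3:106147554-106167564, and its copy Chil4 at chr3:106201490-106219507, with 94.4% identity in the coding sequence. The 4 stretches below, read from the annotated transcripts, are the windows of 30 coding bases in which each pair differs most, and they show how near the copies are that a read must tell apart. Capitals mark the bases that differ within each pair.
Ly6c2 coding bases 7 to 36: aGtActcacGctacaaagtcctgtTtgctG
Ly6c1 coding bases 7 to 36: aCtTctcacActacaaagtcctgtGtgctC
Chil3 coding bases 491 to 520: aagcttttgaggaagaatcTGTGGAgaaAG
Chil4 coding bases 491 to 520: aagcttttgaggaagaatcCACTTTgaaCC
In the last 300 bases of the transcripts identity was 93.8% for the Ly6c pair and 89.4% for the Chil pair, so both markers are uncertain where reads could be split. Which end of the transcript was tagged was not given in the sources used here. Ly6c1 stood at 57.4, 41.2, 0 and 13.1 UMIs per 1000000 UMIs of the cells summed (CPM) in monocytes and at 4120, 4285, 4896 and 4620 CPM in ECs. Ly6c2 stood at 918, 608, 1667 and 1589 CPM in monocytes and at most at 4.0 CPM in ECs. Chil4 stood at 0 CPM in the monocytes of all 4 libraries, and the part of split reads in the Chil3 values was not tested. Ly6c2 helped to choose the monocytes, so its level there is partly fixed by the rule.

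The libraries held 5324 to 8358 barcodes and 30655769 to 88812581 UMIs, and the median kept barcode had 7029, 9015.5, 5474.5 and 4601 UMIs. The 73 monocytes were deeper, with a median of 7998 UMIs (range 3393 to 23617) and 2488 genes (range 1167 to 4804). The 2 young libraries shared 42 barcode sequences and other pairs shared 7 to 15, and no monocyte barcode was among them. The endothelial label of the groups was checked first. Klf4 in ECs stood at 1656, 3182, 2001 and 3167 CPM, so it was higher in both libraries labelled EC-K4KO than in the age-matched WT Cre library. A tag outside the deleted part of the gene does not check a deletion, and neither the deleted exons nor the tagged end was given in the sources used here. The deposited labels also state that the mice had no drug treatment, while the methods of the study give tamoxifen to induce the deletion, so whether the Cre was induced in the mice of these libraries was not settled here. Every direction between genotypes below is between libraries as they are labelled.

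The label monocyte held for most of the 73 barcodes. Lyz2, the lysozyme gene of monocytes, macrophages and neutrophils that the rule did not use, stood at 20995, 19634, 21824 and 24116 CPM in monocytes and at 323 to 1357 CPM in microglia of the same libraries. Per barcode, Lyz2 had a median of 247 UMIs per 10000, and the library medians of 229, 201, 238 and 267 lay close together. In 64 barcodes Lyz2 ran from 82.2 to 815 UMIs per 10000. The other 9 barcodes held at most 41.5, and 5 of them held none; they were spread over the libraries as 1, 3, 2 and 3. These Lyz2-poor barcodes went against the label. Their classical monocyte genes outside the rule, with Lyz2 itself left out of the list, summed to a median of 39.2 UMIs per 10000, against 173 in the 64 others. Their MHC class II genes, which present antigen and are high in dendritic cells and B cells, summed to a median of 276 against 4.21. A list of 8 dendritic cell genes (Flt3, the growth factor receptor of dendritic cells, Itgax, Zbtb46, Xcr1, Clec9a, Cd209a, Ccr7 and Siglech) had a median of 8.58 against 0.

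A pair of single barcodes stood apart as well. One Lyz2-poor barcode of the old WT Cre library held 4502 UMIs per 10000 of neutrophil granule genes, with 3173 UMIs of the alarmin gene S100a8, 850 of Ngp and 815 of Camp. The highest value in any other monocyte was 74.4. One barcode of the young library labelled EC-K4KO held 203 UMIs of Acta2, the smooth muscle actin gene. Values that rest on these barcodes are given below with and without them, after leaving out the 9 Lyz2-poor and the 1 Acta2-rich barcode (10 in all), which left 4, 12, 12 and 35 monocytes.

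Markers of other cells were low in the sums over monocytes. The rule held Mrc1, Tmem119, Retnlg, Ly6g, Cd3e and Cd79a at 0 and capped Cldn5, Flt1, Elane, Mpo and Prtn3. Sums of the lists with these genes were thus partly fixed in advance. The endothelial list (Cldn5, Flt1, Slco1a4, Ly6c1, Itm2a, Pltp and Bsg) summed to 688, 397, 305 and 311 CPM, of which Bsg, a gene that leukocytes also express, gave 287, 237, 234 and 216. The microglial list summed to 258, 216, 241 and 170 CPM, with Sall1 and, by the rule, Tmem119 at 0 in all libraries. The border macrophage list summed to at most 25.8 CPM, and the T and NK list to at most 14.2, with Cd3d, Trac and Trbc2 at 0. Neutrophil markers summed to 86.0, 61.9, 142 and 242 CPM, and precursor markers to 0, 25.8, 170 and 170 CPM, both higher in the old libraries. The B cell list stood at 258, 103, 114 and 118 CPM, the erythroid list at 172, 412, 163 and 174 CPM, and the list for smooth muscle, astrocytes and oligodendrocytes at 602, 1598, 284 and 183 CPM. The last was highest where the Acta2-rich barcode sat. All 5 platelet and basophil genes were at 0. The part of these traces in any result was not tested.

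The rule's threshold fell among cells that were low in Lyz2. Barcodes with 2 markers that met every other condition, just outside the rule, numbered 4, 10, 5 and 14, and their median Lyz2 was 3.49, 4.58, 0 and 85.5 UMIs per 10000. Barcodes with 3 markers, just inside, numbered 1, 6, 2 and 4, with medians of 0, 117, 20.7 and 97.6. In all, 13, 14, 19 and 27 monocytes had 3, 4, 5 and 6 markers, and none of the Lyz2-poor barcodes had more than 4.
Before the exclusions, 9, 25, 36 and 175 kept barcodes held 3 or more markers. The precursor genes removed 43 and the genes required at 0 removed a further 90 in the old library labelled EC-K4KO, where 74 of the marker-positive barcodes had a UMI of Retnlg and 82 of Ly6g, both neutrophil genes. That library was also the one with the most neutrophils.

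Monocytes were most frequent in the old library labelled EC-K4KO. They numbered 5, 16, 14 and 38, or 0.107% (95% Clopper-Pearson interval 0.0348 to 0.250), 0.231% (0.132 to 0.374), 0.241% (0.132 to 0.404) and 0.885% (0.627 to 1.21) of kept barcodes. The interval of the old library labelled EC-K4KO lay above the other 3, which overlapped one another. Intervals cover counting error only, and animal-to-animal variation is not in them. With every kept barcode thinned to 3000 UMIs the shares were 0.118%, 0.187%, 0.276% and 1.43%, after 440, 514, 1098 and 1155 shallower barcodes were left out. The monocytes then numbered 5, 12, 13 and 45. Thinning also takes UMIs of the genes required at 0 and of the capped genes, so barcodes that the rule had left out can enter. The thinned shares are therefore not a check of depth alone. Without the 10 barcodes that stood apart they were 0.0856%, 0.173%, 0.207% and 0.815%. Among barcodes that were not endothelial they were 0.303%, 0.545%, 0.417% and 1.72%. The old library labelled EC-K4KO was highest and the young WT Cre library lowest each time, while the young library labelled EC-K4KO and the old WT Cre library changed places among non-endothelial barcodes.

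Other leukocytes in the same library moved too. Neutrophils numbered 8, 16, 34 and 256 (0.171%, 0.231%, 0.585% and 5.96% of kept barcodes), which is 1.6, 1, 2.43 and 6.74 neutrophils per monocyte. Granulocyte precursors, cells of the bone marrow, numbered 1, 0, 8 and 47, and B cells 8, 24, 33 and 49. T and NK cells numbered 22, 47, 32 and 31, or 0.471%, 0.677%, 0.551% and 0.722% of kept barcodes, so the share in that library was only slightly above that of the young library labelled EC-K4KO. Haemoglobin genes, a sign of red cells, stood at 11595, 19970, 9787 and 12842 CPM over kept barcodes, with the young library labelled EC-K4KO highest. The part of blood or marrow carried into the dissociation in these shares was not tested, and age, genotype and library cannot be told apart where each group is 1 library.

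**Figure D1:**
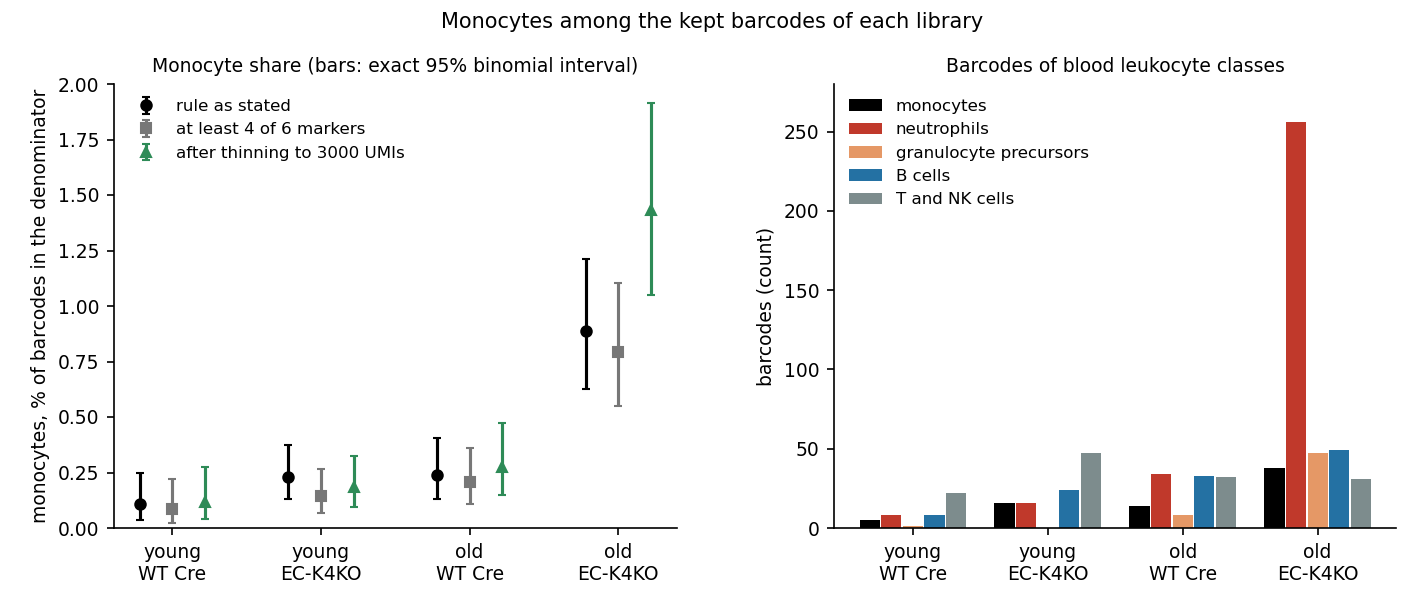
Left, monocytes in percent of barcodes in each library by the rule as stated (circles), with 4 or more of the 6 markers (squares) and after thinning to 3000 UMIs (triangles), with bars for the exact 95% binomial interval, which covers counting error only. Right, the count of kept barcodes in 5 leukocyte classes, where the old library labelled EC-K4KO held 38 monocytes and 256 neutrophils.

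The 6 rule markers, described here with no test, did not follow 1 pattern. Ccr2, the receptor for the chemokine CCL2, stood at 774, 552, 674 and 780 CPM. Plac8, a small cysteine-rich protein gene of myeloid cells, stood at 2753, 2758, 1887 and 3024 CPM, and Ms4a4c, a membrane protein gene, at 315, 500, 369 and 514 CPM. For these 3 genes the libraries lay within 2-fold of each other and ages overlapped. Chil3 stood at 315, 897, 2263 and 3191 CPM. Vcan, a matrix proteoglycan gene of classical monocytes, stood at 28.7, 41.2, 376 and 455 CPM. Chil3, Vcan and Ly6c2 were higher in both old libraries than in both young ones, and Chil3 without the barcodes that stood apart gave 402, 1393, 1790 and 3481 CPM, the same order. With the barcodes at 50 or more MHC class II UMIs per 10000 left out too, Chil3 was 560, 2330, 2011 and 3738 CPM, so the ages then overlapped, while Vcan and Ly6c2 kept both old libraries above both young ones. In droplet data some UMIs come from free RNA. After thinning to 1000 UMIs, Ccr2 was seen in 40%, 56.2%, 42.9% and 36.8% of monocytes, which were chosen with it, and in at most 0.0499% of ECs. Median depths before thinning were 7016 to 11814.5 UMIs in monocytes, 4085 to 11312 in ECs and 4880 to 5706 in microglia. Chil3 was seen in 20%, 25.0%, 35.7% and 65.8% of monocytes against at most 0.385% of ECs and 0.329% of microglia. Neutrophils, with median depths of 3342 to 4740 UMIs, had Chil3 in 12.5%, 0%, 26.5% and 34.0% of cells after thinning and stood at 806, 0, 2859 and 4372 CPM. Chil3 too was among the genes that chose the monocytes, so its share in them is partly fixed by the rule.

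Monocytes varied among themselves in MHC class II. Cd74, the invariant chain, with H2-Aa, H2-Ab1, H2-Eb1, H2-DMa, H2-DMb1 and the transactivator gene Ciita summed to a median of 5.59 UMIs per 10000 over all 73, and to at most 763. A level of 200 or more was met by 15 barcodes (20.5%), as 0, 7, 3 and 5 by library. A level of 50 or more was met by 20 (27.4%), as 1, 8, 3 and 8. Of barcodes with 50 or more, 7 were Lyz2-poor, so 13 of the 64 others remained (20.3%). Only 6 barcodes lay between 30 and 100, on either side of the level of 50. The young library labelled EC-K4KO had the largest share at 50 or more, 50% (24.7 to 75.3), against 20%, 21.4% and 21.1%, with intervals that overlap. The 9 barcodes with 200 or more that kept Lyz2 held a median of 290 UMIs per 10000 of classical genes, against 467 in the 55 with less, at similar depths of 7998 and 7724 UMIs. Of these 9, 4 had 3 markers and 4 had 4.

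**Figure D2:**
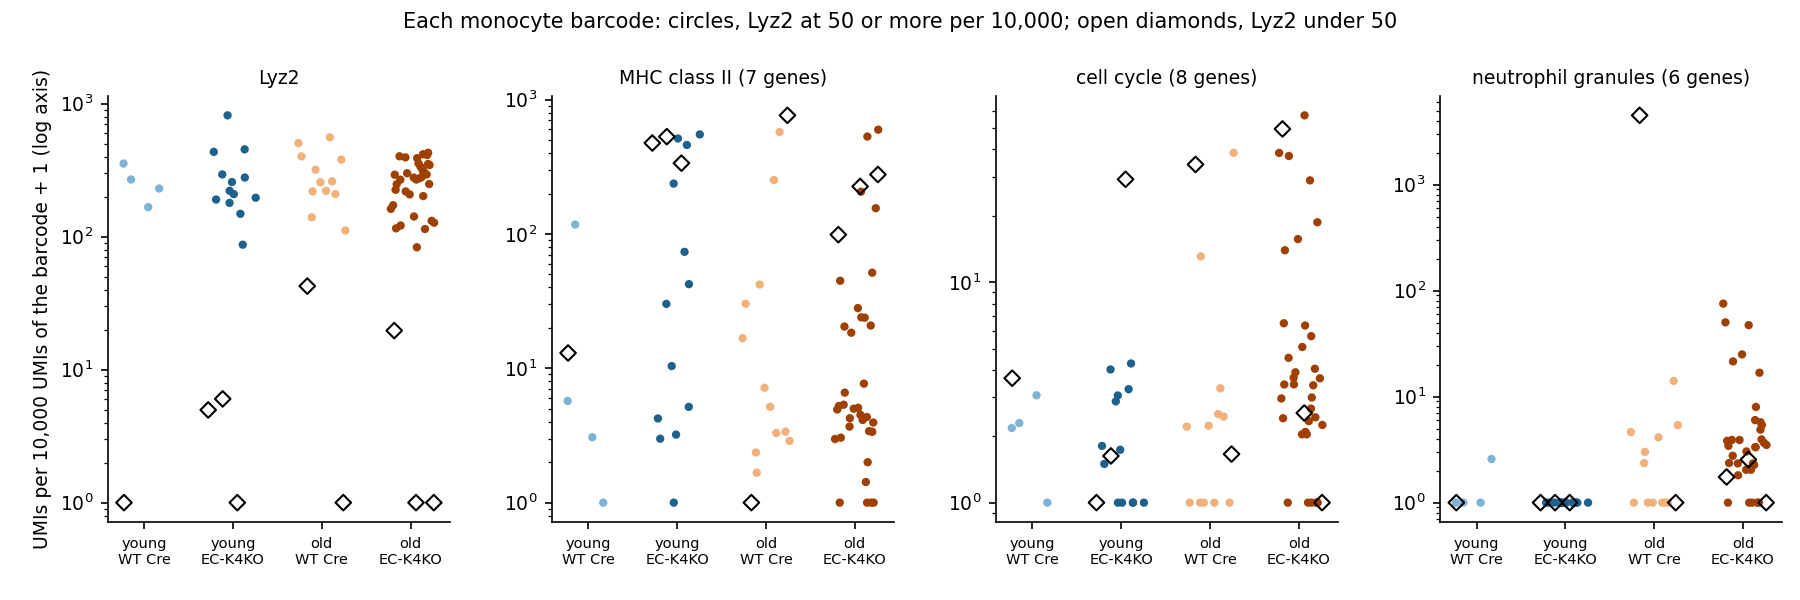
Each point is 1 of the 73 monocyte barcodes, by library, with UMIs per 10000 plus 1 on log axes for Lyz2, MHC class II, cell cycle and neutrophil granule genes, and open diamonds mark the 9 Lyz2-poor barcodes. The one old WT Cre barcode at 4502 granule UMIs per 10000 stands alone, and the Lyz2-poor barcodes lie mostly high in MHC class II.

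A smaller number of monocytes held cell cycle genes. UMIs in 3 or more of 8 genes (Mki67, Top2a, Stmn1, Pcna, Birc5, Cdk1, Mcm5 and Ccnb1) were found in 11 barcodes, as 0, 1, 3 and 7 by library, or 15.1% of all (7.77 to 25.4). In them the 8 genes summed to a median of 33.2 UMIs per 10000, against 1.27 in the 62 others. Their depth was also higher, at a median of 14887 against 7594 UMIs, so a count of genes seen is not independent of depth. Of the 11, 7 had all 6 markers and 3 were Lyz2-poor. Their precursor genes had a median of 3.36 UMIs per 10000, under the rule's limit of 5 but above the 0 of the others. Mki67, which marks cycling cells, stood at 0, 61.9, 149 and 170 CPM and Top2a, the DNA topoisomerase, at 28.7, 25.8, 227 and 223 CPM. Leaving out the barcodes that stood apart gave 0, 0, 110 and 179 CPM for Mki67 and 36.5, 0, 174 and 207 CPM for Top2a, and all Mki67 UMIs of the young library labelled EC-K4KO lay in 1 Lyz2-poor barcode. Both old libraries were above both young ones either way.

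Monocytes were next compared with the 3 myeloid classes most like them, over summed UMIs per library and class (n = 4 libraries, each giving both profiles). Each class was chosen by markers (neutrophils 314, microglia 2672 and border macrophages 239 barcodes), and the genes that chose either class were left out. The tests were edgeR's quasi-likelihood test with the library as a block and Benjamini-Hochberg adjustment, called at an adjusted p under 0.05. Against neutrophils 2055 genes were tested, of which 50.7% were called, 27.9% higher and 22.8% lower in monocytes. Against microglia 31% of 8346 genes were called, 12.8% higher and 18.3% lower, and against border macrophages 32.7% of 3545 genes, 14.4% higher and 18.3% lower. The lists of genes are read against these shares, and the median log2 fold change of all genes was 0.11, -0.16 and -0.04. Log2 fold changes are monocytes over the other class, with the standard error (SE) of the fit, and levels are the mean ± SD of the libraries' CPM.

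The 18 classical monocyte genes outside the rule set monocytes apart from both kinds of macrophage. Against microglia 16 were higher and 1 lower, with a median log2 fold change of 6.86, and against border macrophages 15 were higher and 2 lower, with a median of 4.70. S100a4, a calcium-binding protein gene of motile leukocytes, stood at 2180, 2871, 3150 and 3496 CPM in monocytes and at 7.52 ± 4.45 CPM in microglia (log2 fold change 8.71 ± 0.44 SE, edgeR adjusted p = 5.20e-19). Fn1, the fibronectin gene, stood at 1033, 598, 1093 and 1337 CPM against 8.19 ± 3.05 in border macrophages (6.63 ± 0.32, edgeR adjusted p = 2.21e-09). Every monocyte library was above every macrophage library for both genes. Lyz2 was higher in monocytes than in microglia by 5.09 ± 0.34 and than in border macrophages by 1.31 ± 0.18 on the log2 scale (edgeR adjusted p = 1.00e-15 and 4.77e-05). The exceptions were Itgam, an integrin gene that was lower than in microglia (-0.96 ± 0.26, edgeR adjusted p = 0.00450), and, against border macrophages, Cd14, the endotoxin co-receptor (-2.01 ± 0.36, edgeR adjusted p = 0.000497), and the chemokine receptor gene Ccr1 (-1.03 ± 0.24, edgeR adjusted p = 0.00380).

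The 8 genes with the highest fold changes over microglia had varied roles. F13a1, a clotting factor gene of monocytes, had 397 UMIs in monocytes and 2 in microglia, Gpr141, an orphan receptor gene, 143 and 1, and F10, another clotting factor gene, 121 and 1. Emilin2, a matrix protein gene, stood at 339 ± 41.5 against 0.333 ± 0.576 CPM, Napsa, an aspartic protease gene, at 472 ± 111 against 0.750 ± 0.915, and Ifitm6 at 527 ± 47.7 against 3.02 ± 2.63. All of them, with Plbd1 and S100a4, passed the test, and no library of one class overlapped the other. At the low end, Slc2a5, a fructose transporter gene, Fscn1, Nav3 and Sall1, a transcription factor gene of microglia, had 0 UMIs in monocytes. Against the 3 UMIs that a count of 0 allows over the group, they were at least 51.1-fold, 47.5-fold, 41.9-fold and 42.2-fold lower. C1qa and C1qc, complement genes of resident macrophages, fell from 8741 ± 697 and 5316 ± 367 CPM in microglia to 16.2 ± 10.7 and 7.90 ± 10.2 in monocytes. Fcrls and Il1a were also lower (-8.62 ± 0.52 and -8.34 ± 0.55 on the log2 scale, edgeR adjusted p = 7.25e-17 and 8.96e-16).

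Border macrophages differed from monocytes most in other genes. Hp, the haptoglobin gene, stood at 685 ± 439 against 1.43 ± 2.85 CPM, and Slpi, a protease inhibitor gene, at 312 ± 218 against 1.43 ± 2.85. Anxa1, the annexin A1 gene, stood at 396 ± 136 against 3.86 ± 4.61 (6.26 ± 0.43, edgeR adjusted p = 6.35e-08), and Gpr141 and Napsa were also higher. F10 had 0 UMIs in border macrophages and was at least 94.9-fold higher in monocytes. The 8 genes with the lowest fold changes followed. The chemokine genes Ccl8 and Ccl24 and the genes Cd209f, Igf1, Cd209g and Folr2 had 0 UMIs in monocytes and were at least 277-fold, 206-fold, 172-fold, 63.3-fold, 48.3-fold and 50.6-fold lower. Ccl7 and Dab2, an endocytic adaptor gene, had 1 UMI each, against 5066 and 1722.

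Macrophage maturation genes were lower in monocytes than in both kinds of macrophage. Of the list's genes 10 of 11 tested were lower than in microglia (median log2 fold change -4.32) and 10 of 10 were lower than in border macrophages (-4.95), with none higher. Against neutrophils 3 of 6 were higher and 1 lower (1.24). Apoe, the lipid carrier gene, stood at 4417, 1747, 1355 and 1553 CPM in monocytes and at 42658 ± 5227 in border macrophages (-4.51 ± 0.25, edgeR adjusted p = 6.00e-09). It was the 1 gene not called against microglia, where it ranged from 779 to 9361 CPM and overlapped (-0.20 ± 0.42, edgeR adjusted p = 0.768). Adgre1, which encodes the macrophage antigen F4/80, stood at 104 ± 22.6 CPM against 191 ± 38.8 in microglia and 408 ± 58.4 in border macrophages, lower in both tests. Among 15 receptors, Csf1r, the receptor for the macrophage growth factor, was lower than in microglia (-3.09 ± 0.31, edgeR adjusted p = 8.81e-11) and than in border macrophages (-2.47 ± 0.24, edgeR adjusted p = 1.82e-06). In all 4 of the receptors tested were higher and 6 lower against microglia (of 15), and 4 and 6 against border macrophages (of 13).

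MHC class II was higher in monocytes than in neutrophils and microglia, and was not called against border macrophages. Of 6 genes tested, 6 were higher than in neutrophils (median 6.81) and 5 higher than in microglia (4.63), and 0 were called either way against border macrophages (-0.77). Cd74 stood at 1405, 9253, 5399 and 2526 CPM in monocytes, at 18.5 ± 18.7 in neutrophils and at 245 ± 148 in microglia. Border macrophages stood at 6173 ± 1221 CPM, within the range of the monocyte libraries (-0.81 ± 0.40, edgeR adjusted p = 0.133). Without the barcodes that stood apart the Cd74 values of monocytes were 1791, 7204, 2901 and 2052 CPM. With the barcodes at 50 or more MHC class II UMIs per 10000 left out too, a choice made on these genes, they were 102, 800, 429 and 328 CPM. Microglia stood at 307, 93.1, 421 and 157 CPM in the same libraries, so the young WT Cre library was then below its microglia and the old WT Cre library close to them.

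Interferon response genes were higher in monocytes wherever they were called, with 5 of 9 against neutrophils (median 1.54), 13 of 15 against microglia (2.78) and 5 of 10 against border macrophages (0.91). Ifitm3, which restricts virus entry, stood at 3729, 4211, 3767 and 3689 CPM in monocytes, against 134 ± 68.6 in microglia (4.95 ± 0.36, edgeR adjusted p = 1.99e-14) and 1006 ± 406 in border macrophages. Adhesion genes were higher in 7 and lower in 4 of 12 against microglia, and higher in 9 and lower in 1 of 11 against border macrophages. Against neutrophils more were lower than higher, with 2 higher and 5 lower of 11 (median -0.55). Cd44 and Itga4, an integrin gene that binds VCAM1 on endothelium, were higher than in both kinds of macrophage.

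Cytokines and early response genes ran the other way. Of the cytokine list 10 of 18 were lower and 3 higher against microglia, 11 and 2 of 15 against border macrophages, and 7 and 2 of 10 against neutrophils. Cxcl2, which attracts neutrophils, stood at 0, 25.8, 56.8 and 88.5 CPM in monocytes and at 4790 ± 1622 in border macrophages (-6.62 ± 0.36, edgeR adjusted p = 5.65e-09). Ccl6 and Ccl9, chemokines of myeloid cells, were the other way, with Ccl6 at 1090, 902, 1050 and 989 CPM against 157 ± 33.6 in microglia (2.68 ± 0.28, edgeR adjusted p = 4.04e-10). Immediate early genes, which also respond to dissociation, were lower in 9 of 16 against microglia, with 1 higher, and in 11 of 16 against border macrophages, with 0 higher.

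Neutrophils, the nearest class by lineage, differed from monocytes in granule genes. All 6 granule genes were lower in monocytes (median -8.40). S100a9 stood at 145964 ± 22331 CPM in neutrophils, and at 0, 0, 17162 and 49.1 CPM in monocytes (-11.86 ± 2.30, edgeR adjusted p = 0.00205). The third value is the 1 granule-rich barcode of the old WT Cre library, without which (and without the other barcodes that stood apart) it was 18.4 CPM. S100a4 had 0 UMIs in neutrophils and was at least 1803-fold higher in monocytes. Fn1 (7.74 ± 0.59), S100a10 (7.47 ± 0.49), Ms4a6c (7.44 ± 0.49) and Ms4a6b (6.90 ± 0.50) followed, with edgeR adjusted p between 2.21e-05 and 2.44e-05. Cstdc4, Acod1, Stfa2l1, Dhrs9 and H2-Q10 had 0 UMIs in monocytes, at least 117-fold, 76.1-fold, 76.2-fold, 36.7-fold and 26.8-fold lower. The classical list did not set monocytes apart here, with 6 of 18 genes higher and 8 lower (median -0.52). Lyz2 was higher (1.31 ± 0.39, edgeR adjusted p = 0.0175), and S100a6 was lower (-1.61 ± 0.34, edgeR adjusted p = 0.00313). Il1b, the interleukin-1 beta gene, stood at 258, 1443, 312 and 881 CPM against 4256 ± 3437 in neutrophils (-3.03 ± 0.42, edgeR adjusted p = 0.000306), with the ranges apart. Without the old library labelled EC-K4KO, which held 256 of the 314 neutrophils, 327 and 272 genes were called higher and lower in place of 573 and 468. It also held 38 of the 73 monocytes, and without it 640 genes were higher than in microglia in place of 1067.

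**Figure D3:**
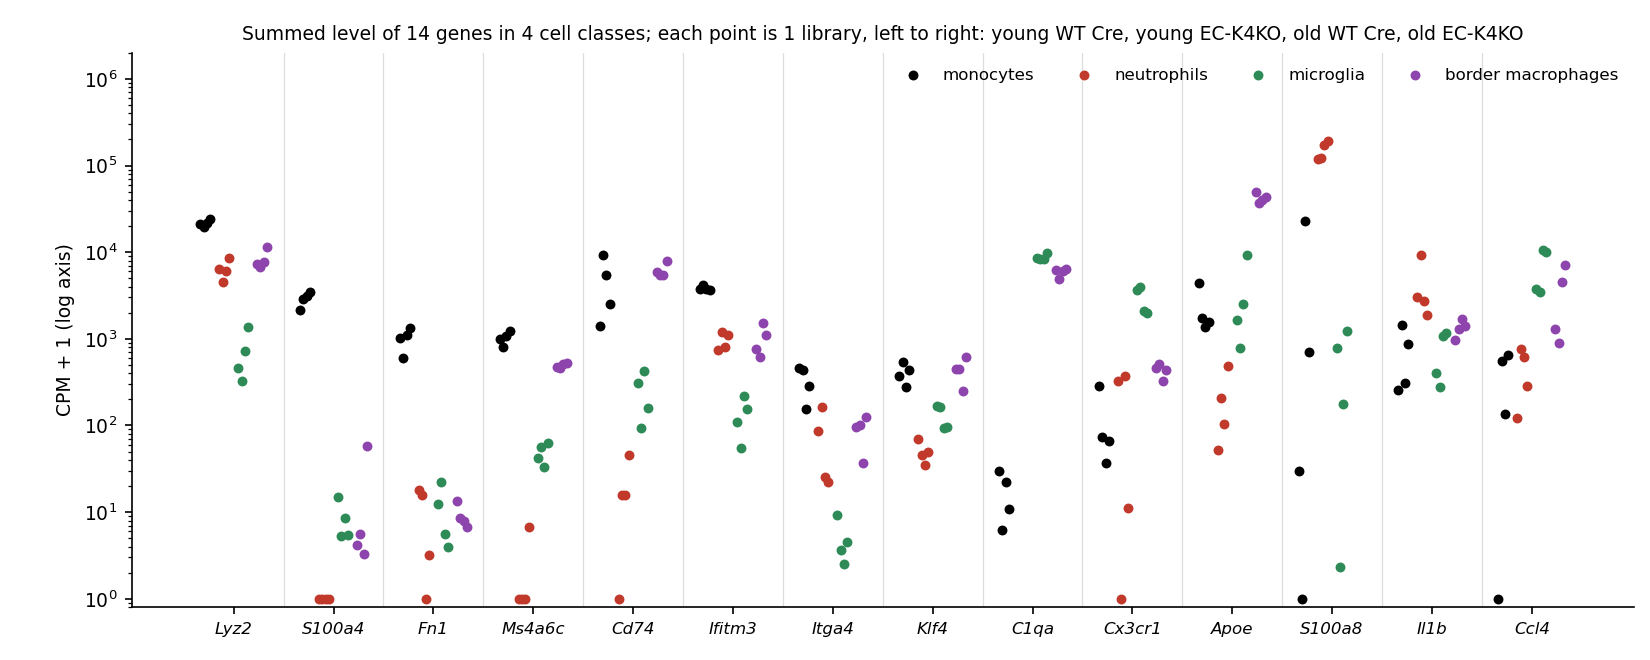
Level of 14 genes in monocytes, neutrophils, microglia and border macrophages, in CPM plus 1 on a log axis, with 1 point for each library from left to right in that order, and no point where a class was under the filter for that gene. Monocytes lie above both kinds of macrophage in all 4 libraries for Lyz2, S100a4, Fn1 and Ifitm3, and below them for C1qa.

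Between libraries, monocyte levels are given as values with no test, since each group was 1 library, and the young WT Cre value rests on 5 barcodes and 34866 UMIs. The others rest on 194000, 140947 and 305236 UMIs. Ratios are on the log2 scale of CPM with 0.5 UMI added, with an exact conditional binomial 95% interval for counting error only. Of 459 genes that averaged 300 CPM or more, 14.2% differed by 2-fold or more between the young libraries labelled EC-K4KO and WT Cre (8.5% higher and 5.66% lower in EC-K4KO), and 3.49% between the old ones (0.654% higher and 2.83% lower). For old over young it was 19.2% in WT Cre (10.9% higher and 8.28% lower) and 7.41% in EC-K4KO libraries (3.92% higher and 3.49% lower). The 2 comparisons with the young WT Cre library, the one with fewest monocytes, had the larger shares. Under scaling by trimmed means (TMM) the median of all genes stood at 0.42 in the young genotype comparison, against 0.03 without it, and at 0.39 in the WT Cre age comparison. Of the genes past 2-fold, the share that was higher then went from 60% to 83.9% and from 56.8% to 83.6%.

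MHC class II levels differed in opposite directions by genotype at the 2 ages. The 7 genes summed to 2983, 21613, 12728 and 5160 CPM, so the young library labelled EC-K4KO was highest and the old one was below the old WT Cre library. The log2 ratio of EC-K4KO over WT Cre was 2.85 (2.58 to 3.15) in young and -1.30 (-1.40 to -1.20) in old libraries. Of the 5 genes of the list at 300 CPM, 4 were past 2-fold up in the first and 4 past 2-fold down in the second. H2-Eb1, a beta chain gene, stood at 143, 3299, 2356 and 537 CPM and H2-Aa, an alpha chain gene, at 402, 4010, 2469 and 914 CPM. Single barcodes carried much of this, with 86.5%, 20.1%, 64.4% and 30.3% of a library's MHC class II UMIs in its top barcode. Without the Lyz2-poor and Acta2-rich barcodes the sums were 3471, 15719, 5867 and 4089 CPM. They were 255, 1296, 838 and 689 CPM once all barcodes at 50 or more UMIs per 10000 were also left out.

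Neutrophil granule genes were seen almost entirely in the old libraries, and within WT Cre in 1 barcode. The list summed to 28.7, 0, 54120 and 986 CPM, and the granule-rich barcode held 99.6% of the old WT Cre sum. Without the barcodes that stood apart the sums were 36.5, 0, 257 and 1069 CPM, so the library labelled EC-K4KO was then the higher of the old pair. S100a8 stood at 704 CPM in the monocytes of the old library labelled EC-K4KO and at 1238 CPM in microglia of the same library, which should lack it. In those monocytes 2 barcodes held 93 and 60 of the 215 UMIs, and the part of free RNA was not tested. The named ratios of S100a9, Ngp and Camp in old WT Cre monocytes (2419, 850 and 815 UMIs, against 0 in both young libraries) rest on the same barcode. Lcn2, a granule gene for an iron-carrier binding protein, had 0, 0, 231 and 65 UMIs. Its level was 0, 0, 45.9 and 232 CPM without the barcodes that stood apart.

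Thbs1, the thrombospondin-1 gene and a member of the classical list, was not seen in young WT Cre monocytes. It stood at 0, 711, 1852 and 2067 CPM, with 138 UMIs in the young library labelled EC-K4KO and 0 in the young WT Cre library, at least 8.27-fold higher. The old WT Cre library was at least 21.5-fold above the young one. Without the barcodes that stood apart it was 0, 1129, 2396 and 2255 CPM. Both old libraries lay above both young ones. The classical list as a whole stood at 31463, 31588, 38483 and 43042 CPM, a narrow range, and at 38661, 43918, 47843 and 46542 CPM without those barcodes. S100a6 stood at 1635, 2809, 3320 and 3604 CPM. Nonclassical genes stood at 3040, 1356, 816 and 835 CPM, highest in the young WT Cre library, where Nr4a1, which drives nonclassical monocytes and is also an early response gene, gave 832 CPM. Cx3cr1, the fractalkine receptor of nonclassical monocytes and microglia, stood at 287, 72.2, 35.5 and 65.5 CPM. More than 30 UMIs per 10000 of the list were held by 5 barcodes. The barcode at 82.8 was in the young WT Cre library, and those at 30.1, 32.2, 60.9 and 65.0 were in the old library labelled EC-K4KO. The top barcode of the young WT Cre library held 37.7% of its UMIs of the list.

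The early response and heat shock list, summed, was highest in the young WT Cre library, while its members went both ways. The sum stood at 13910, 8381, 6392 and 5265 CPM, and 1 barcode held 46.2% of the first value. Hspa1a, an inducible heat shock protein gene, stood at 3327, 567, 447 and 42.6 CPM, and Hspa1b at 2294, 557, 397 and 59.0 CPM. Jun, an AP-1 subunit gene, stood at 1377, 186, 63.9 and 55.7 CPM, and Atf3, a stress-induced transcription factor gene, at 1348, 180, 326 and 121 CPM. For all 4 genes the young WT Cre library was highest, and 1 barcode held from 46.6% (Hspa1a) to 91.5% (Atf3) of its UMIs. The log2 ratios of young EC-K4KO over young WT Cre were -2.55 (-2.94 to -2.16) for Hspa1a, -2.89 (-3.56 to -2.24) for Jun and -2.90 (-3.58 to -2.24) for Atf3. In the old pair Hspa1a had a ratio of -3.35 (-4.38 to -2.52). Other members were highest in the young library labelled EC-K4KO, among them the AP-1 subunit genes Junb (1033, 1552, 1242 and 957 CPM) and Jund (344, 758, 326 and 449 CPM) and the mRNA decay factor gene Zfp36 (459, 716, 362 and 331 CPM). Fos, another AP-1 subunit gene, had a narrow range (832, 897, 944 and 796 CPM). Over the 13 members with at least 300 CPM on average, the median log2 ratio of young EC-K4KO over young WT Cre was 0.09, against 0.03 over all genes compared, and 2 members were past 2-fold upward and 4 downward.

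Cytokines differed mainly in genes carried by few barcodes. Il1b stood at 258, 1443, 312 and 881 CPM, higher in the library labelled EC-K4KO at both ages, with ratios of 2.41 (1.54 to 3.63) and 1.48 (1.03 to 1.99). Its values without the barcodes that stood apart were 329, 2094, 404 and 829 CPM, in the same order. Ccl4, a chemokine gene of activated myeloid cells, stood at 0, 557, 135 and 652 CPM, and 1 barcode held 89.8% of the second value and another 97.0% of the fourth. Without the barcodes that stood apart Ccl4 was 0, 90.7, 165 and 17.9 CPM. Cxcl10, an interferon-induced chemokine gene, stood at 629 CPM in the young library labelled EC-K4KO, where 2 barcodes held 88 and 34 UMIs, and at no more than 3.28 CPM elsewhere. Other genes chosen by size of ratio were Gda (50 UMIs in young EC-K4KO, 0 in young WT Cre, at least 3.0-fold), and in the old pair mt-Nd2 (1.03, 0.73 to 1.35), Atp6v1g1 (0.98, 0.45 to 1.58) and Fyb (0.85, 0.23 to 1.57). Interferon genes (8576, 9351, 7549 and 7063 CPM) and adhesion genes (5363, 3840, 3441 and 4190 CPM) had narrower ranges.

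Both old libraries lay above both young ones for 29.8% of the 459 genes and below them for 24.4%. The genes with the widest gap upward, besides the granule genes and Thbs1, were Slpi, Hp, Ier3 and Hmgb2. Hp stood at 344, 268, 1086 and 1042 CPM, Slpi at 115, 139, 447 and 547 CPM, and Ier3, an early response gene, at 28.7, 232, 674 and 947 CPM. Hmgb2, a chromatin protein gene that is high in dividing cells, stood at 344, 361, 1298 and 1497 CPM, and the cell cycle list at 143, 397, 1000 and 1245 CPM. Each was higher in both old libraries. Without the barcodes that stood apart the cell cycle list was 110, 115, 771 and 1122 CPM. The precursor markers stood at 0, 25.8, 170 and 170 CPM with all barcodes and at 0, 41.2, 211 and 186 CPM without those that stood apart. The rule capped Elane, Mpo and Prtn3 of that list, so its levels are a description only. Downward, Jun had the widest gap, but its level was 1754, 65.9, 64.3 and 53.6 CPM without those barcodes and 2443, 55.2, 73.3 and 56.8 CPM with the MHC class II-rich ones left out too, where the ages overlapped. The next were Nr4a1 (832, 722, 255 and 174 CPM), Rpl10 (1606, 1180, 468 and 416 CPM), Dusp1 (975, 887, 355 and 246 CPM) and Rpl35 (774, 541, 177 and 236 CPM). Adgre5, an adhesion receptor gene of leukocytes, stood at 717, 474, 234 and 259 CPM, Samhd1, an antiviral nuclease gene, at 889, 825, 482 and 482, and H2-DMa at 430, 490, 263 and 262. H2-DMa overlapped between ages without the barcodes that stood apart (219, 379, 248 and 243 CPM). Rpl5 and Gm8995 completed the 10. Ribosomal protein genes have many processed copies, so their values are uncertain.

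**Figure D4:**
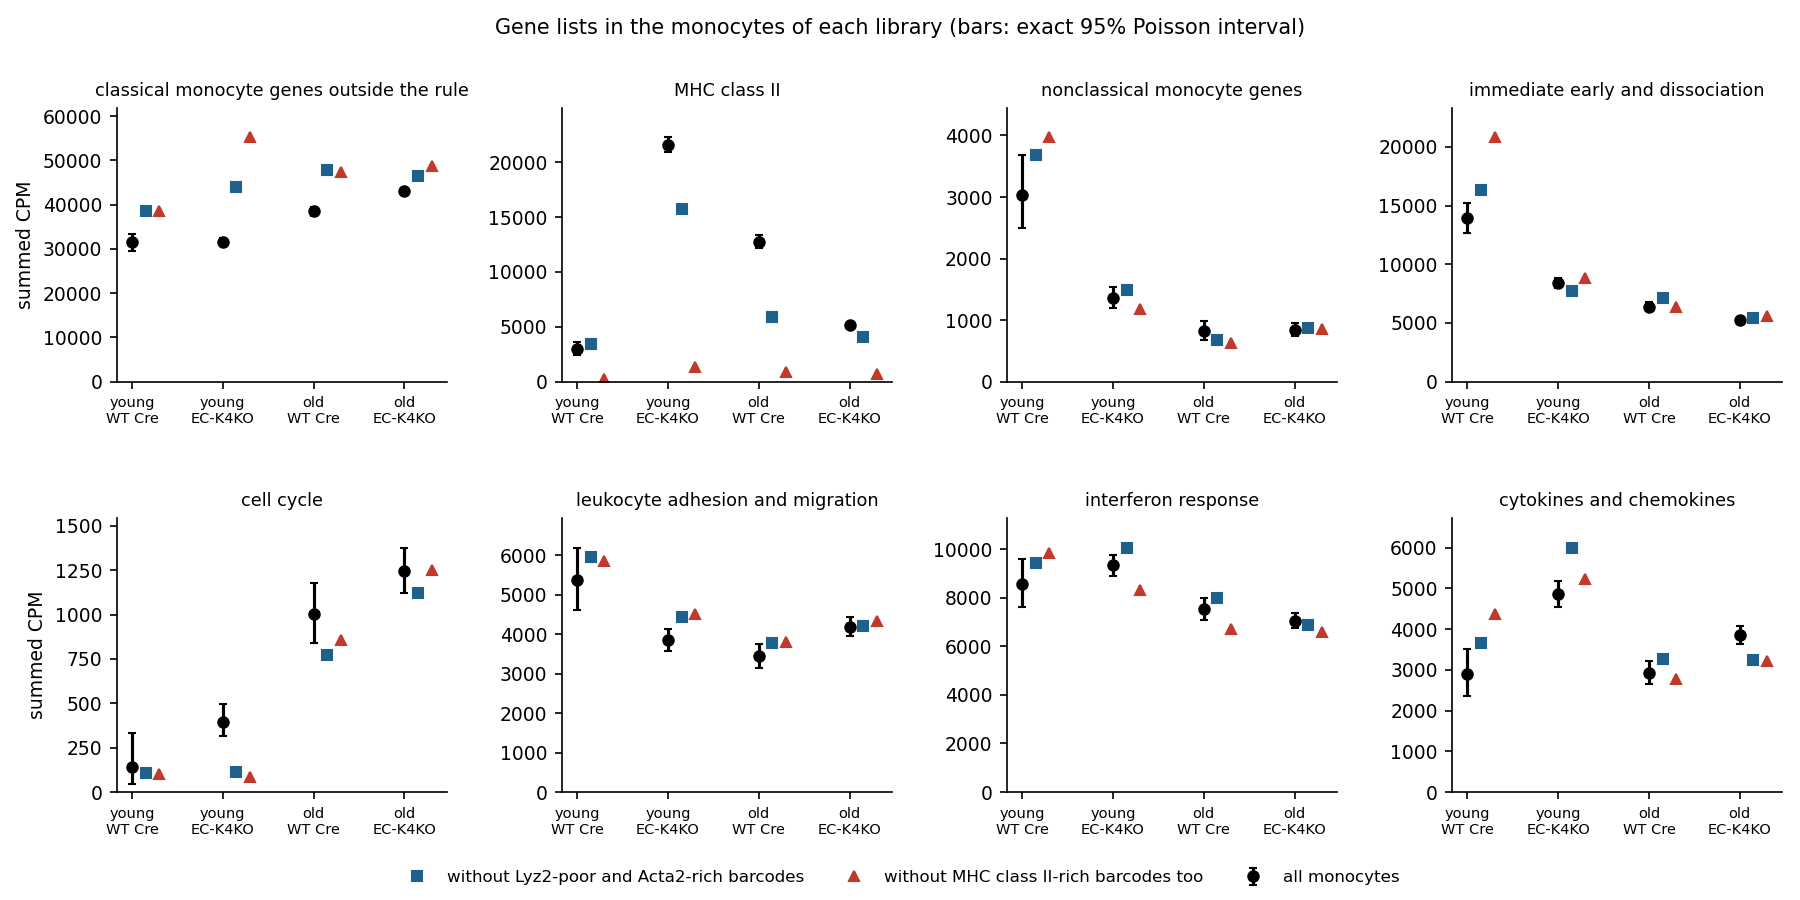
Summed CPM of 8 gene lists in the monocytes of each library, for all 73 barcodes (circles, with the exact 95% Poisson interval), without the Lyz2-poor and Acta2-rich barcodes (squares) and also without barcodes at 50 or more MHC class II UMIs per 10000 (triangles). MHC class II ranges from 2983 to 21613 CPM and falls to at most 1296 CPM when the rich barcodes are left out, while the cell cycle list is higher in both old libraries in all 3 versions.

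Klf4, the gene targeted in ECs, was expressed in monocytes. It stood at 373, 546, 277 and 436 CPM, and after thinning to 1000 UMIs it was seen in 0%, 62.5%, 21.4% and 39.5% of monocytes, against 8.75%, 11%, 7.03% and 9.06% of microglia. In young WT Cre monocytes 4 of 5 had a Klf4 UMI before thinning. The 0 of 5 after thinning allows a share of up to 52.2% seen at 1000 UMIs, which is not the share of cells that express the gene. Monocytes were above neutrophils (2.56 ± 0.31, edgeR adjusted p = 0.000183) and microglia (1.71 ± 0.25, edgeR adjusted p = 7.44e-07) in all 4 libraries. They were not called different from border macrophages at 440 ± 148 CPM (-0.17 ± 0.23, edgeR adjusted p = 0.627). The EC-K4KO over WT Cre ratio in monocytes was 0.50 (-0.28 to 1.51) in young and 0.64 (0.13 to 1.21) in old libraries, the same direction as in ECs. With the barcodes that stood apart left out, Klf4 was 292, 635, 239 and 465 CPM, a wider difference between genotypes at both ages, and with the MHC class II-rich ones left out too it was 356, 689, 262 and 478 CPM. Microglia of the same libraries held 166, 164, 91.9 and 94.6 CPM, with little difference by genotype at either age, and the part of free endothelial RNA in the monocyte values was not tested. Klf2, a relative with shared targets, stood at 803, 582, 305 and 410 CPM, higher than in microglia (1.84 ± 0.25, edgeR adjusted p = 1.42e-07) and lower than in neutrophils (-1.04 ± 0.34, edgeR adjusted p = 0.0256). The call against neutrophils was lost without the young EC-K4KO, the old WT Cre or the old EC-K4KO library (edgeR adjusted p = 0.0665, 0.148 and 0.0661). Pecam1, an adhesion gene of ECs and leukocytes, had 1, 3, 0 and 2 UMIs, too few for any comparison. Of the other transcription factors Irf8, which guides monocyte and dendritic cell fate, stood at 717, 87.6, 70.9 and 111 CPM. Irf8 without the barcodes that stood apart was 146, 90.7, 64.3 and 100.1 CPM, since 1 Lyz2-poor barcode held 21 of the 25 UMIs of the young WT Cre library. Cebpb, which sustains nonclassical monocytes, stood at 1864, 2593, 2370 and 2378 CPM.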

How the data were processed

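The 4 libraries were single-cell RNA preparations of mouse brain, 1 for each group. The deposited values are raw UMI counts for 55487 genes in each barcode. Cell Ranger 6.0.2 stands in the headers of the matrices, and the submitters' processing notes name mm10, GRCm38 and Seurat. Other settings were not given in the sources used here. Library totals were 30655769 to 88812581 UMIs, and 4671, 6940, 5810 and 4293 barcodes were kept.

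The cells, gene lists and tests were chosen with earlier results of these data known. The named genes were the rule's own genes, Klf4, Klf2 and Pecam1, the members of 25 lists with the highest mean, and the genes with the largest fold changes by fixed counts (8 each way at 200 CPM for classes, 5 each way at 300 CPM between libraries, 10 each way between ages); a gene outside these was picked for its role or its values. Classes were set by markers: neutrophils by 3 or more granulocyte markers and no Ccr2, microglia by Tmem119, P2ry12 and a further marker that is not reported here, without Mrc1 or Ccr2, border macrophages by Mrc1 with 3 or more of its markers. UMIs were summed per library and class and tested with edgeR 4.0.16 (R 4.3.3), low genes filtered, TMM scaling and the library as a block, because both classes came from the same library; p-values measure the spread between these 4 libraries, which are not replicates of a condition. The scripts were tested on simulated data. Alternatives were DESeq2 1.42.0, other size factors, no filter, no block, other marker and depth limits and leaving out each library. Doublets were not removed in the main values; removing the highest Scrublet scores (0.8% per 1000 barcodes) was an alternative that took 0, 1, 2 and 3 monocytes. Intervals are exact at 95% and cover counting error only. Coordinates and coding sequences came from a GENCODE annotation of GRCm38. Values of single genes are not corrected for transcript length, so levels were not compared between genes.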

Additional observations from a re-analysis of the deposited data

Results flagged for a closer look

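The MHC class II list differed in opposite directions between libraries. The log2 ratio of EC-K4KO over WT Cre was 2.85 in young and -1.30 in old monocytes, and that of old over young was 2.09 in WT Cre and -2.07 in EC-K4KO libraries, as labelled. The difference between these ratios was not tested, since each group was 1 library. The top barcode held 86.5% of the young and 64.4% of the old WT Cre UMIs of the list. The list summed to 2983, 21613, 12728 and 5160 CPM. Without the Lyz2-poor and Acta2-rich barcodes it summed to 3471, 15719, 5867 and 4089 CPM, with the directions kept and the old pair closer together.

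Smaller opposite ratios by genotype were also seen and were not tested. For leukocyte adhesion and migration they were -0.48 in young and 0.28 in old monocytes. For the hypoxia, glycolysis and iron genes, which summed to 7113, 8835, 9713 and 8751 CPM, they were 0.31 in young and -0.15 in old. For the smooth muscle, astrocyte and oligodendrocyte markers they were 1.38 in young, where the Acta2-rich barcode sat, and -0.63 in old. Those markers summed to 602, 1598, 284 and 183 CPM. Without the Lyz2-poor and Acta2-rich barcodes they summed to 694, 214, 349 and 197 CPM, so the young direction turned and the library labelled EC-K4KO was then the lower at both ages. The adhesion list without those barcodes was 5956, 4443, 3783 and 4203 CPM, with the genotype directions kept.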

How the results depend on the processing

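The old library labelled EC-K4KO had the highest share and the young WT Cre library the lowest under all 7 alternatives, while the other two changed places among non-endothelial barcodes, with 2 markers, where they stood at 0.375% (young) and 0.327% (old), and without high Scrublet scores, at 0.231% and 0.219%. Shares moved beyond their interval among non-endothelial barcodes (0.303%, 0.545%, 0.417% and 1.72%), with 2 markers (0.375% in the young library labelled EC-K4KO) and after thinning (1.43% in the old one). With at least 600 CPM the genes past 2-fold numbered 28 in the young genotype comparison, 37 for age in WT Cre and 22 for age in EC-K4KO (65, 88 and 34 in the main values), where fewer genes were compared. For the old genotype comparison (16) they numbered 9 with 4 markers, 5 without the Lyz2-poor and Acta2-rich barcodes and 6 without the MHC class II-rich ones, and for age in EC-K4KO 21 without the Lyz2-poor and Acta2-rich ones. With no filter 868 genes were lower than in neutrophils and 1172 lower than in border macrophages (468 and 648), and 286 were lower than in neutrophils without high Scrublet scores. Leaving out each library gave 327 to 713 higher and 272 to 509 lower against neutrophils, 640 to 1089 and 1107 to 1354 against microglia, and 410 to 503 and 528 to 633 against border macrophages, with the lowest counts against neutrophils without the old library labelled EC-K4KO. The cause of these moves was not tested.

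The library paired the class profiles as a block. With no replicate block 604 and 474 genes were higher and lower against neutrophils, 1242 and 1676 against microglia and 538 and 676 against border macrophages, and Ngp lost its call against neutrophils (edgeR adjusted p = 0.0788). No comparison between genotypes or ages was paired or tested, because each group was 1 library. DESeq2 called 476 and 459, 772 and 1306, and 377 and 530 genes. Klf2 lost its call against neutrophils in 3 of 4 fits that left out a library, as given in the results, and gained one against border macrophages without the young WT Cre library (edgeR adjusted p = 0.0302).

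Some ratios of EC-K4KO over WT Cre in old monocytes changed sign. S100a8 went from -5.0 to 1.94 with 4 markers, 1.95 without the Lyz2-poor and Acta2-rich barcodes, 1.91 without the MHC class II-rich ones and 2.32 without high Scrublet scores, S100a9 from -8.40 to 1.17, 1.27, 1.17 and 1.26, and the granule list from -5.78 to 2.02, 2.03, 1.99 and 2.32, each of which leaves out the granule-rich barcode. Ccl4 went from 2.24 to -3.11 and -1.08 without the Lyz2-poor and the MHC class II-rich barcodes, the cytokine list from 0.40 to -0.012 without the first, and the classical list from 0.16 to -0.079 (4 markers), -0.032 (mean over cells) and -0.040 (without the Lyz2-poor). In young monocytes the cell cycle list went from 1.34 to -0.10 and -0.51 without the same 2 sets. For age in EC-K4KO the classical list went from 0.45 to -0.18 without the MHC class II-rich barcodes. Klf4 against border macrophages (-0.17) ran from -0.39 to 0.038 when each library was left out, and the higher value was without the old EC-K4KO library. The sets of barcodes left out were chosen after seeing the data.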
